A study of Mus musculus with 8 samples.

Results

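The genes described here are 9 markers used to identify Müller glia in the mouse retina, namely Crym, Aqp4, Clu, Glul, Rlbp1, Slc1a3, Vim, Apoe and Prdx6. They were taken by symbol from a deposited table of 16096 genes, and each of the 9 had 1 row there. The tissue was peripheral retina, dissected from C57BL/6 embryos on embryonic day 16.5, and its RNA was sequenced in 4 libraries labelled Pax6alpha-Cre:Ezh2fl/null and 4 labelled Pax6alpha-Cre:Ezh2fl/+. In the Ezh2fl/null embryos a floxed Ezh2 allele stood over a null allele, and in the Ezh2fl/+ embryos it stood over a wild-type allele. By the labels both groups carried the Pax6alpha-Cre driver, which is active in the peripheral retina, so cells without active Cre kept the floxed allele in both groups and lacked the other allele in Ezh2fl/null embryos alone. Ezh2 encodes the histone H3 methyltransferase of Polycomb repressive complex 2, which keeps developmental genes silent. The comparison asks which transcripts differ between these genotypes in the embryonic retina.

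Müller glia are the radial glia that span the thickness of the retina, and they are among the last cells to be generated from retinal progenitors. They clear glutamate from synapses and convert it to glutamine, move water and ions, take part in the retinoid cycle of cones and hold the retina together. Several of their markers, Vim, Slc1a3 and Glul among them, are also expressed by the progenitors from which they arise. At this stage, and in RNA of a whole piece of tissue, glial and progenitor transcripts of such genes cannot be told apart, nor can a change in the number of cells of a type be told from a change of RNA per cell.

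Total counts were 14764220 to 18391647 in the libraries labelled Ezh2fl/null and 13994825 to 17346834 in those labelled Ezh2fl/+. Ezh2 itself had 45.1, 39.4, 41.8 and 36.6 FPKM (the authors' fragments counted per length of gene and depth of library) in Ezh2fl/null replicates 1 to 4, against 36.1, 38.0, 30.3 and 34.6 FPKM in Ezh2fl/+ replicates 1 to 4. It was thus not lower in the libraries labelled Ezh2fl/null (log2 fold change 0.21, SE 0.07; adjusted p = 0.0701 in the quasi-likelihood test of edgeR with Benjamini-Hochberg adjustment). Counts of the whole gene do not check a deletion whose exons are unnamed in the labels, and each direction below is that of the libraries labelled Ezh2fl/null over those labelled Ezh2fl/+. Xist and 4 Y-linked genes showed that Ezh2fl/null replicates 2 and 3 came from female embryos and the other 6 libraries from males. Summed lens genes, a sign of adhering lens, were at 8.67 CPM (counts scaled to a common library total) in Ezh2fl/null replicate 2 and 12.7 CPM in Ezh2fl/+ replicate 1, and at most 2.42 CPM in each other library. Mitochondrial transcripts took 10.1% to 14.4% of the counts in the Ezh2fl/null libraries and 8.41% to 14.04% in the Ezh2fl/+ libraries. The retinal progenitor gene Pax6, which marks the labelled tissue, averaged 681 CPM in the Ezh2fl/null libraries, against 729 CPM in the Ezh2fl/+ libraries.

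The Müller glia markers did not move as a block. Crym, Aqp4, Clu and Rlbp1, which were low or moderate in the Ezh2fl/+ libraries, rose in the libraries labelled Ezh2fl/null. Glul, the member with the highest mean level, fell slightly. Vim, Slc1a3, Prdx6 and Apoe did not pass the test. In the edgeR fit over 15014 genes, with 0.05 as the threshold on adjusted p, 4 of the 9 members were called higher and 1 lower, where 8.35% of all genes tested were called higher and 3.46% lower. The median log2 fold change of the 9 members was 0.17, beside -0.01 over all genes tested. The normalised levels of 6 of the 9 members did not overlap between the groups, as was the case for 16.3% of all genes tested. The 9 genes together made up 0.156% to 0.163% of the counts in the Ezh2fl/null libraries and 0.153% to 0.170% in the Ezh2fl/+ libraries, so their summed share overlapped between the groups.

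**Figure D1:**
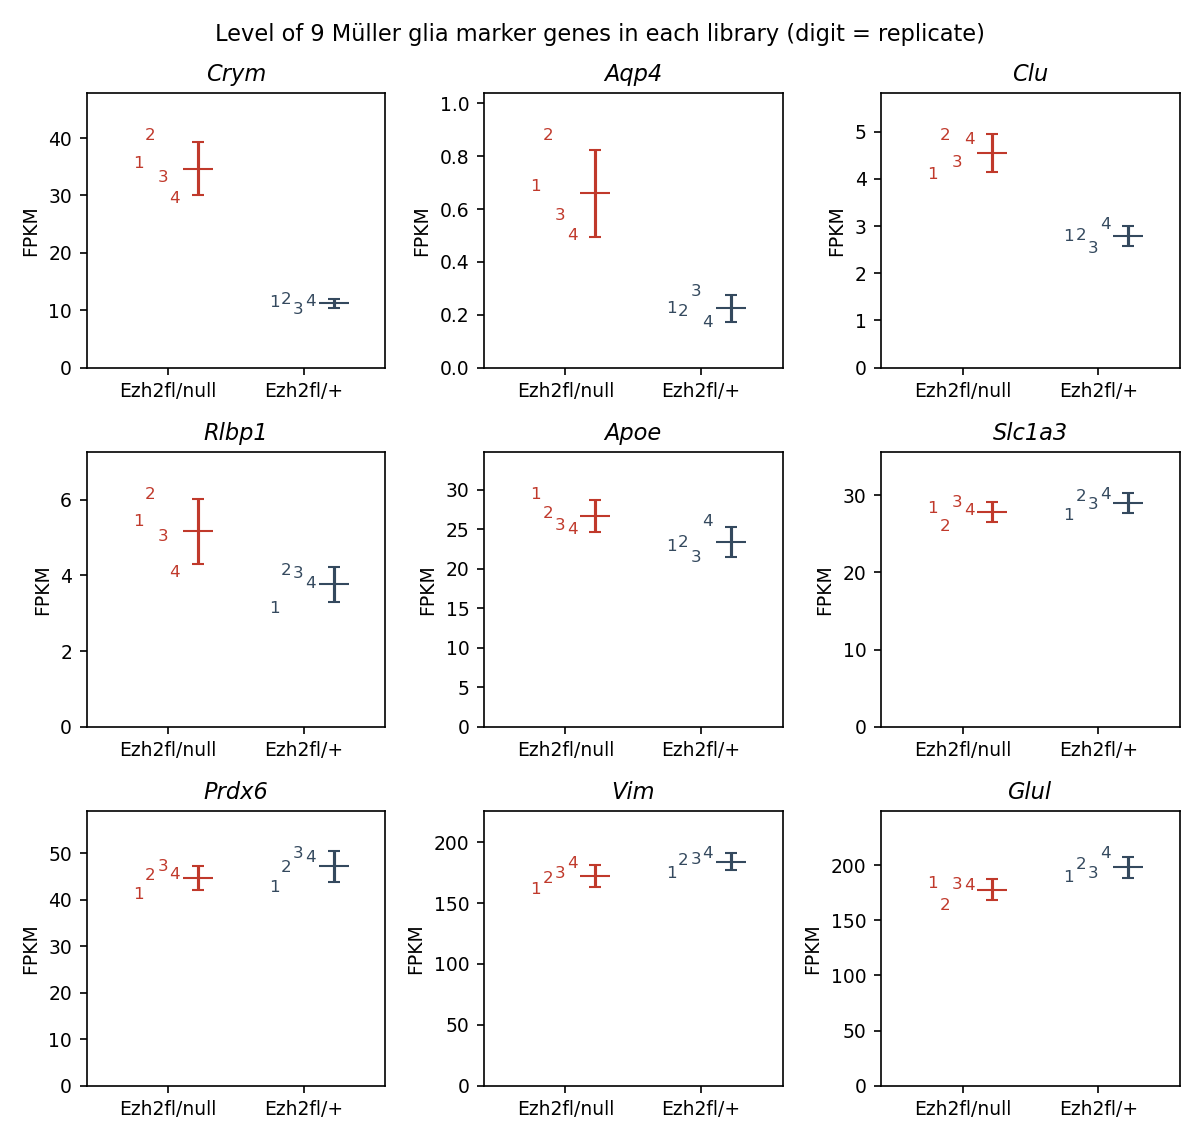
FPKM (y axis, from 0, a separate scale for each gene) of the 9 markers in the 4 Ezh2fl/null libraries (red) and the 4 Ezh2fl/+ libraries (dark blue). Digits are replicate numbers, and bars give the mean and SD of each group. Crym, Aqp4 and Clu are separated, with the Ezh2fl/null libraries of Crym between 29.4 and 40.5 FPKM, whereas Slc1a3, Prdx6, Vim and Apoe overlap.

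Crym showed the largest fold change of the members. It encodes mu-crystallin, a cytosolic protein that binds thyroid hormone and reduces ketimines. The gene (ENSMUSG00000030905) lies on chromosome 7 from 120186380 to 120202111 on the minus strand (mm10, GENCODE M21), with no other annotated gene over it. Crym had 35.6, 40.5, 33.1 and 29.4 FPKM in Ezh2fl/null replicates 1 to 4, against 11.4, 11.9, 10.1 and 11.5 FPKM in Ezh2fl/+ replicates 1 to 4. The lowest Ezh2fl/null library was far above the highest Ezh2fl/+ library. The means were 34.7 ± 4.64 FPKM in the Ezh2fl/null libraries and 11.2 ± 0.774 FPKM in the Ezh2fl/+ libraries (SD, n = 4 each), with a coefficient of variation of 13.4% among the Ezh2fl/null libraries and 6.90% among the Ezh2fl/+ libraries. This gave a log2 fold change of 1.61 (SE 0.09, 95% limits 1.41 to 1.81), a 3.05-fold higher level (edgeR adjusted p = 4.65e-08). By p-value the gene ranked 15 of 15014. For Crym the log2 ratio in the authors' deposited table was 1.56.

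Aqp4, the water channel that Müller glia and astrocytes place in their endfeet, rose by a similar fold from a far lower level. The gene (ENSMUSG00000024411) is on chromosome 18, and an antisense transcript is annotated over it. Aqp4 had 64, 66, 44 and 40 counts in Ezh2fl/null replicates 1 to 4, against 16, 16, 22 and 15 counts in Ezh2fl/+ replicates 1 to 4. The groups did not overlap, but with so few counts the spread was wide. In FPKM the means were 0.660 ± 0.164 in the Ezh2fl/null libraries and 0.224 ± 0.0496 in the Ezh2fl/+ libraries (SD, n = 4 each). Its log2 fold change came to 1.54 (SE 0.24, 95% limits 1.03 to 2.05; edgeR adjusted p = 0.000492). The sources used here do not say whether counting used strand, so reads of the antisense transcript may be included.

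Clu, which encodes clusterin, a secreted chaperone and lipoprotein component, rose less. It lies on chromosome 14 from 65968483 to 65981547 on the plus strand (ENSMUSG00000022037). Clu had 4.09, 4.92, 4.34 and 4.83 FPKM in Ezh2fl/null replicates 1 to 4, against 2.78, 2.81, 2.53 and 3.03 FPKM in Ezh2fl/+ replicates 1 to 4. All 4 Ezh2fl/null libraries were above all 4 Ezh2fl/+ libraries. For Clu the log2 fold change came to 0.68 (SE 0.09, 95% limits 0.49 to 0.87; edgeR adjusted p = 0.000111). Clu varied by 8.70% among the Ezh2fl/null libraries and by 7.40% among the Ezh2fl/+ libraries, less than Aqp4 at 24.9% among the Ezh2fl/null libraries and 22.1% among the Ezh2fl/+ libraries. The calls of Crym, Aqp4 and Clu held in each of 20 alternative analyses.

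Rlbp1, which encodes the retinaldehyde binding protein of Müller glia and pigment epithelium, was called higher by a narrow margin. It lies on chromosome 7 from 79374870 to 79387048 on the minus strand (ENSMUSG00000039194). Rlbp1 had 5.43, 6.15, 5.02 and 4.07 FPKM in Ezh2fl/null replicates 1 to 4, against 3.11, 4.14, 4.04 and 3.79 FPKM in Ezh2fl/+ replicates 1 to 4. The groups overlapped, since Ezh2fl/null replicate 4 lay below the highest Ezh2fl/+ library. For Rlbp1 the log2 fold change came to 0.43 (SE 0.13, 95% limits 0.15 to 0.71; edgeR adjusted p = 0.0441). The call ended in 12 of 20 alternatives, among them the 6 male libraries alone (log2 0.30, edgeR adjusted p = 0.308) and the 6 libraries with lens genes under 5 CPM (log2 0.26, edgeR adjusted p = 0.260), and over the 20 the adjusted p went as low as 0.00663 and as high as 0.336. Leaving out 1 library gave log2 0.32 without Ezh2fl/null replicate 2 and 0.54 without Ezh2fl/null replicate 4. Of the 7 pigment epithelium genes tested, 2 were called higher, Rlbp1 itself and Otx2 (log2 0.26), and 0 lower. Otx2 was also counted here as a photoreceptor gene, so its call is not particular to pigment epithelium. Of all genes tested, 8.35% were called higher and 3.46% lower. Among the other pigment epithelium genes the melanin genes Tyr, Tyrp1, Dct and Pmel were at log2 -0.50, -0.12, -0.17 and -0.44. They did not pass the test, and Rpe65 had no row in the table.

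Glul, which encodes glutamine synthetase, the enzyme that turns glutamate into glutamine in glia, was the member called lower. It lies on chromosome 1 from 153899944 to 153909723 on the plus strand (ENSMUSG00000026473). The gene Teddm2 on the other strand and a microRNA gene are annotated within it. Glul had 183, 163, 183 and 182 FPKM in Ezh2fl/null replicates 1 to 4, against 189, 200, 192 and 211 FPKM in Ezh2fl/+ replicates 1 to 4. The groups did not overlap, and on the FPKM scale Ezh2fl/null replicate 2 stood below the other 3 of its group. The means were 178 ± 9.55 FPKM in the Ezh2fl/null libraries and 198 ± 9.73 FPKM in the Ezh2fl/+ libraries (SD, n = 4 each). For Glul the log2 fold change came to -0.18 (SE 0.05, 95% limits -0.29 to -0.08; edgeR adjusted p = 0.0260). The call ended in 13 of 20 alternatives, in 6 of the 8 that left out 1 library and with library size alone as the scaling (log2 -0.16, edgeR adjusted p = 0.136), while the direction was kept in each. The adjusted p ranged from 0.000163 with DESeq2 to 0.164.

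The sequences before the start sites of Rlbp1 and Glul are shown because these are the called members with an entry in the RefSeq promoter table used here (GRCm38.p6), where 5 of the 9 members were matched, and because Polycomb repressive complex 2 is known to occupy promoters rich in CG dinucleotides in mammals. Each sequence covers the 250 bases before the start, 5′ to 3′ on the strand of the gene, with CG dinucleotides in capitals. Rlbp1 is shown at chr7:79387028-79387277 (minus strand) and Glul at chr1:153899679-153899928 (plus strand).
Rlbp1: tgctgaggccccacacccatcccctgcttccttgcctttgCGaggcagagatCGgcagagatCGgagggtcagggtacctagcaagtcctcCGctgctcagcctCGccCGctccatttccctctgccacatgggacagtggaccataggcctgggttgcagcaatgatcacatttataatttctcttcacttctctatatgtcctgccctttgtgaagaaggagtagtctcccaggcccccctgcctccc
Glul: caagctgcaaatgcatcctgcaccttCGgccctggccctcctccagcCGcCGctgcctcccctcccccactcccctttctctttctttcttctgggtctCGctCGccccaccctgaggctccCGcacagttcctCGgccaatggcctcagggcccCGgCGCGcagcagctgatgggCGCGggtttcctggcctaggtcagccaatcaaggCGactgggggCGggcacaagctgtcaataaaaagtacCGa
The Rlbp1 window held 6 CG dinucleotides, the median of 32851 such windows, and the Glul window held 15, a number reached by 27.3% of them. The short nuclear factor I motif TTGGCA, searched on both strands, was in neither window and in 12.3% of all windows. The SOX core ACAAT, also on both strands, was in neither and in 27.7% of all. These are matches of letters in a short window and say nothing of the binding of a factor.

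The other members did not pass the test. In GENCODE M21 Apoe lies on chromosome 7 from 19696109 to 19699188, Slc1a3 on chromosome 15 from 8634124 to 8710764 and Prdx6 on chromosome 1 from 161240112 to 161251219, all on the minus strand, and Vim on chromosome 2 from 13573927 to 13582826 on the plus strand. Apoe, which encodes the main apolipoprotein of the nervous system, had 29.4, 27.0, 25.5 and 24.97 FPKM in Ezh2fl/null replicates 1 to 4. It had 22.8, 23.4, 21.4 and 25.95 FPKM in Ezh2fl/+ replicates 1 to 4, and the groups overlapped through Ezh2fl/+ replicate 4. Its log2 fold change was 0.17 (95% limits 0.03 to 0.32; edgeR adjusted p = 0.131), and it passed in 1 of 20 alternatives, without Ezh2fl/null replicate 4 (log2 0.21, edgeR adjusted p = 0.0448, the lowest of the 20, the highest being 0.309). Apoe is also expressed by microglia. Of 9 microglia genes tested, 4 were called higher and 0 lower (median log2 0.52), where 8.35% of all genes tested were called higher and 3.46% lower. The 11 microglia genes summed to 48.4 to 56.1 CPM in the Ezh2fl/null libraries and 35.3 to 42.5 CPM in the Ezh2fl/+ libraries. The part of this in the value of Apoe was not tested. The called microglia genes were the receptors P2ry12 (log2 0.74) and Cx3cr1 (0.54), the complement gene C1qb (0.63) and the adaptor gene Tyrobp (0.84). The call of Cx3cr1 ended in 3 of 20 alternatives and that of Tyrobp in 10.

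Vim, Slc1a3 and Prdx6 lay slightly below the Ezh2fl/+ level, with limits close to 0. Vim, the intermediate filament gene of radial glia and progenitors, had 161, 170, 175 and 183 FPKM in Ezh2fl/null replicates 1 to 4, against 174, 185, 186 and 191 FPKM in Ezh2fl/+ replicates 1 to 4 (log2 -0.12, 95% limits -0.23 to -0.01; edgeR adjusted p = 0.158). Slc1a3, the glutamate and aspartate transporter GLAST, had 28.3, 26.03, 29.1 and 28.0 FPKM in Ezh2fl/null replicates 1 to 4, against 27.3, 29.8, 28.8 and 30.1 FPKM in Ezh2fl/+ replicates 1 to 4 (log2 -0.08, 95% limits -0.17 to 0.01; edgeR adjusted p = 0.249). Prdx6, a peroxiredoxin with phospholipase activity, had 41.1, 45.2, 47.1 and 45.3 FPKM in Ezh2fl/null replicates 1 to 4, against 42.6, 47.0, 49.9 and 48.9 FPKM in Ezh2fl/+ replicates 1 to 4 (log2 -0.10, 95% limits -0.22 to 0.02; edgeR adjusted p = 0.310). On the FPKM scale each of these 3 genes overlapped between the groups, while in CPM Vim and Slc1a3 did not, and none was called in any of 20 alternatives. Mouse Prdx6 has a closely related copy, Prdx6b, so reads may be split between them.

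**Figure D2:**
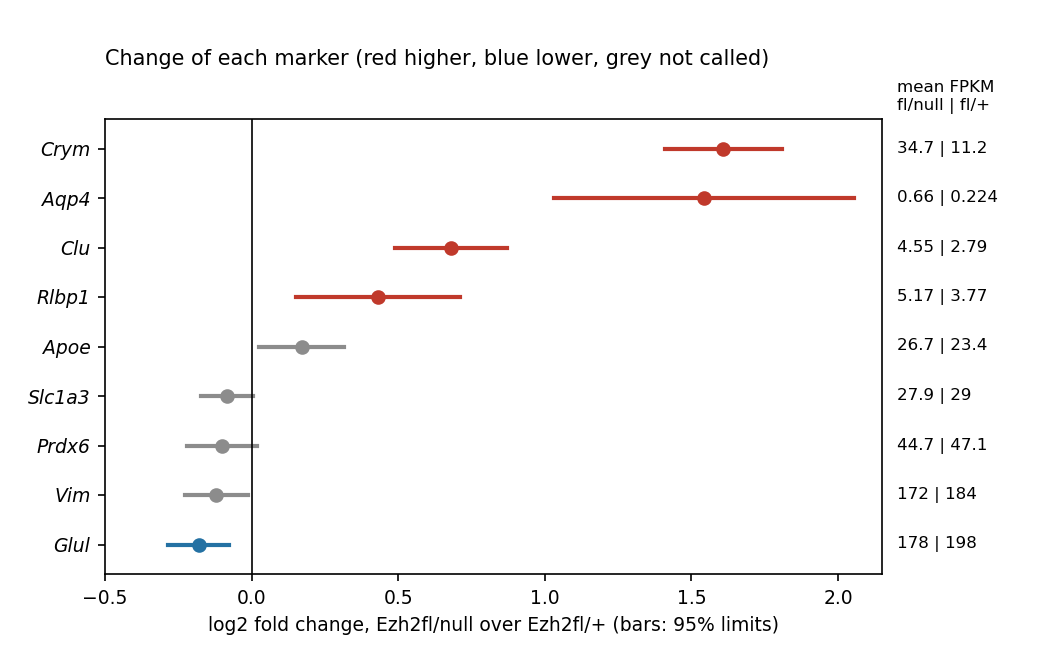
Log2 fold change (x axis) of the 9 markers in the libraries labelled Ezh2fl/null over those labelled Ezh2fl/+, with 95% limits from the edgeR fit, and at the right the mean FPKM of each group. Crym at 1.61 and Aqp4 at 1.54 lie well above Clu at 0.68 and Rlbp1 at 0.43, and the 4 lowest values lie between -0.18 and -0.08.

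Levels of the members spanned a wide range, which can be compared between genes in FPKM because that unit divides by gene length. In the Ezh2fl/null libraries the order of mean FPKM was Glul at 178, Vim at 172, Prdx6 at 44.7, Crym at 34.7, Slc1a3 at 27.9, Apoe at 26.7, Rlbp1 at 5.17, Clu at 4.55 and Aqp4 at 0.660. In the Ezh2fl/+ libraries it was Glul at 198, Vim at 184, Prdx6 at 47.1, Slc1a3 at 29.0, Apoe at 23.4, Crym at 11.2, Rlbp1 at 3.77, Clu at 2.79 and Aqp4 at 0.224. Crym thus stood in place 4 in the Ezh2fl/null libraries and in place 6 in the Ezh2fl/+ libraries, past Slc1a3 and Apoe by mean. In the Ezh2fl/null libraries the lowest value of Crym, 29.42 FPKM, was just under the highest of Apoe, 29.45 FPKM. The ranges of Glul and Vim overlapped in both groups, and those of Slc1a3 and Apoe, and of Rlbp1 and Clu, in the Ezh2fl/null libraries. The other neighbours in each order did not overlap. The gene length behind the FPKM of Vim was 0.493 times its exon union in GENCODE M21, and with that union its mean would be 84.9 FPKM in the Ezh2fl/null libraries and 90.7 FPKM in the Ezh2fl/+ libraries. With the same change Rlbp1 would stand below Clu in the Ezh2fl/null libraries, at 3.86 against 4.55 FPKM, and beside Clu in the Ezh2fl/+ libraries, at 2.81 against 2.79 FPKM, and Prdx6 at 34.2 FPKM would stand beside Crym at 34.7 FPKM in the Ezh2fl/null libraries.

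The higher members differed among the Ezh2fl/null libraries, and partly in the same order. Ezh2fl/null replicate 2 had the highest FPKM of Crym, Aqp4, Clu and Rlbp1, at 3.61, 3.93, 1.77 and 1.63 times the Ezh2fl/+ mean, and the lowest of Glul and Slc1a3, at 0.825 and 0.897 times. Ezh2fl/null replicate 4 had the lowest FPKM of Crym, Aqp4, Rlbp1 and Apoe, at 2.62, 2.24, 1.08 and 1.07 times the Ezh2fl/+ mean, but was the next highest after replicate 2 for Clu at 1.73 times. Replicate 2 is 1 of the 2 female libraries, has lens genes at 8.67 CPM and has the highest share of mitochondrial transcripts of its group, and replicate 4 has the lowest. The part of these in the order of the libraries was not tested. Without Ezh2fl/null replicate 2 the log2 fold change was 1.51 for Crym, 1.36 for Aqp4 and 0.62 for Clu, and all 3 were still called. Among the Ezh2fl/+ libraries no member other than Aqp4 and Rlbp1 left the range of 0.900 to 1.11 times the mean.

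**Figure D3:**
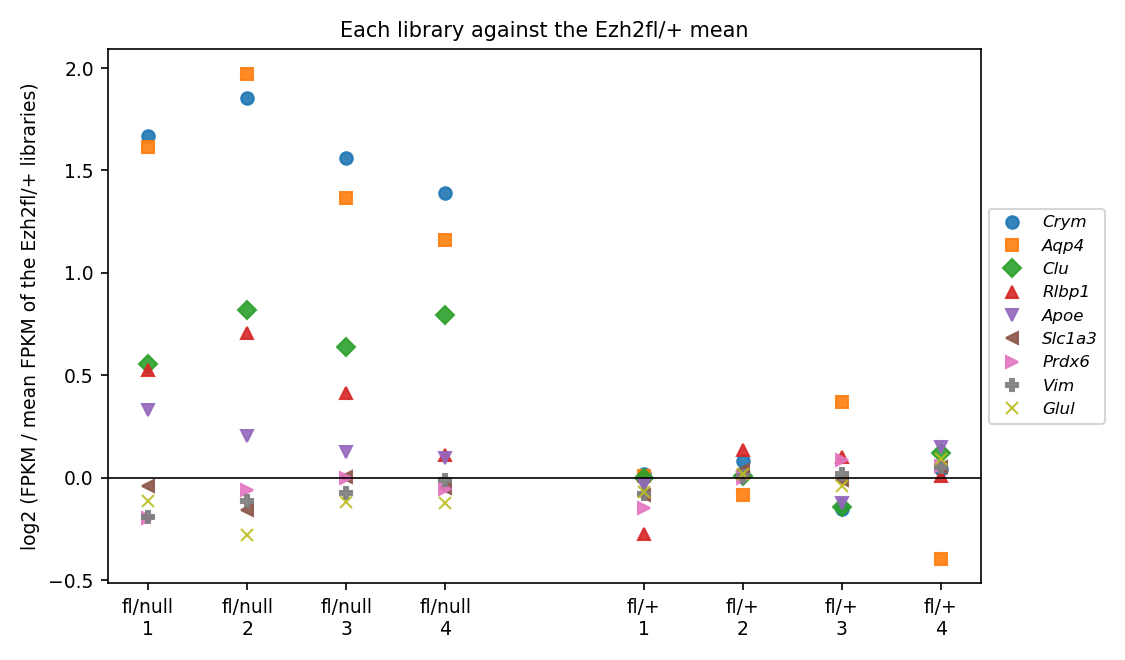
Log2 ratio (y axis) of the FPKM in each library to the mean FPKM of the 4 Ezh2fl/+ libraries, with 1 symbol for each of the 9 markers and the libraries along the x axis, Ezh2fl/null at the left. Crym and Aqp4 are highest in Ezh2fl/null replicate 2 and lowest of that group in replicate 4, and the Ezh2fl/+ libraries scatter around 0.

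Other genes of Müller glia, from a list of 12 chosen beside the 9 members, moved in part like Crym, Aqp4 and Clu. Of 10 tested, 6 were called higher and 0 lower, with a median log2 fold change of 0.33, where 8.35% of all genes were called higher. The list was chosen with earlier results of these data known, so this count is no independent check on the members. Mlc1, which encodes a membrane protein of glial endfeet, had 32, 22, 18 and 25 counts in Ezh2fl/null replicates 1 to 4, against 1, 0, 3 and 1 counts in Ezh2fl/+ replicates 1 to 4 (log2 4.06; edgeR adjusted p = 1.64e-05), so its fold rests on very few counts in the Ezh2fl/+ libraries. Kcnj10, the potassium channel that stands beside Aqp4 in endfeet, averaged 4.09 CPM in the Ezh2fl/null libraries and 2.32 CPM in the Ezh2fl/+ libraries (log2 0.84; edgeR adjusted p = 0.0107). Car2, a carbonic anhydrase, averaged 63.1 CPM in the Ezh2fl/null libraries and 36.5 CPM in the Ezh2fl/+ libraries (log2 0.79; edgeR adjusted p = 3.88e-05). Spon1, an extracellular matrix gene, was at log2 0.73 (edgeR adjusted p = 4.94e-07). The calls of Kcnj10, Car2 and Spon1 held in each of 20 alternatives, and that of Mlc1 in the 19 that tested it, whereas those of Cd9 (log2 0.45) and Cp (log2 0.21) ended in 3 and 6. Dkk3, Car14, Gpr37 and Dbi, at log2 -0.11, 0.11, 0.03 and -0.02, did not pass the test, and Gfap and Abca8a had no row in the table used here.

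Aqp4, Kcnj10 and Slc1a2 are also genes of astrocytes. Of 6 astrocyte genes tested, 3 were called higher and 0 lower (median log2 0.47), where 8.35% of all genes tested were called higher and 3.46% lower. The 6 summed to 276 to 313 CPM in the Ezh2fl/null libraries and 199 to 229 CPM in the Ezh2fl/+ libraries. The largest part of that sum was Slc1a2, which averaged 168 CPM in the Ezh2fl/null libraries and 120 CPM in the Ezh2fl/+ libraries. The called astrocyte genes were the glutamate transporter gene Slc1a2 (log2 0.49), Ndrg2 (0.53) and the gap junction gene Gja1 (0.53). The call of Gja1 ended in 6 of 20 alternatives. Aldoc (log2 0.46), Aldh1l1 (0.44) and Fabp7 (0.24) did not pass the test. Gfap, Pax2, S100b and Agt had no row in the table. Amacrine cell genes, of which 9 were tested, had 5 called higher and 0 lower (median log2 0.35). They summed to 499 to 576 CPM in the Ezh2fl/null libraries and 344 to 358 CPM in the Ezh2fl/+ libraries. Meis2 differed most within that sum, with means of 181 CPM in the Ezh2fl/null libraries and 81.5 CPM in the Ezh2fl/+ libraries. The 9 mesenchyme genes tested had 4 called higher and 0 lower (median log2 0.72), with sums of 31.0 to 84.6 CPM in the Ezh2fl/null libraries and 23.7 to 54.5 CPM in the Ezh2fl/+ libraries. The called mesenchyme genes were Twist1, Prrx1, Foxc1 and Pdgfra. The collagen genes Col1a1, Col1a2 and Col3a1, at log2 0.17, 0.21 and 0.72, did not pass, nor did Postn (0.66) and Dcn (0.50). The part of these cell types in the values of Crym, Aqp4 and Clu was not tested.

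Transcription factors and signalling genes of glial fate split in direction. Of 17 tested, 5 were called higher and 5 lower (median log2 -0.06), where 8.35% of all genes tested were called higher and 3.46% lower. The nuclear factor I genes, which drive late progenitor and glial programmes, were higher, with Nfix at log2 2.29 (edgeR adjusted p = 1.18e-07), Nfib at 0.81 and Nfia at 0.60, while Nfic at 0.07 did not pass. The Notch target genes Hey2 (log2 1.19) and Hey1 (0.50) were also higher, while Hes5, another Notch target, was lower (log2 -0.41; edgeR adjusted p = 0.00654). Sox9, a gliogenic factor also present in progenitors, was lower (log2 -0.38; edgeR adjusted p = 0.00161), as were the inhibitors of differentiation Id1 (-0.41), Id3 (-0.27) and Id2 (-0.33), of which Id3 lost its call in 6 and Id2 in 10 of 20 alternatives. Sox2, Sox8, Lhx2, Rax, Notch1 and Hes1 lay between log2 -0.18 and 0.03 and did not pass.

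Some retinal progenitor genes were called lower, as was Glul. Of 14 progenitor genes tested, 0 were called higher, 5 were called lower and 9 did not pass (median log2 -0.16). Of all genes tested, 3.46% were called lower. The 14 summed to 6021 to 7191 CPM in the Ezh2fl/null libraries and 7390 to 8478 CPM in the Ezh2fl/+ libraries. The largest part of that sum was Ccnd1 alone, which averaged 3217 CPM in the Ezh2fl/null libraries and 4102 CPM in the Ezh2fl/+ libraries. Among the called progenitor genes were the nuclear receptor gene Nr2e1 (log2 -0.41), the cyclin gene Ccnd1 (-0.35), Hes5 (-0.41) and the growth factor gene Fgf15 (-0.31). The call of Fgf15 ended in 4 of 20 alternatives. The part of progenitor RNA in the values of Glul, Vim and Slc1a3 was not tested.

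Genes that share a pathway with a member gave the following counts, where 8.35% of all genes tested were called higher and 3.46% lower. No group was tested as a set, and groups this small can differ from those shares by 1 or a few genes. Of 8 genes of glutamate handling tested besides Glul and Slc1a3, 3 were called higher and 1 lower (median log2 -0.01), namely the transporter genes Slc1a1 (log2 0.75), Slc1a2 (0.49) and Slc38a3 (0.48), and Slc1a4 (-0.48). The enzyme gene Glud1, at log2 0.02, did not pass. Of 11 genes of thyroid hormone handling tested beside Crym, 4 were higher and 0 lower (median log2 -0.01): the hormone-responsive gene Klf9 (0.68), the deiodinase gene Dio3 (0.46) and the receptor genes Rxrg (0.34) and Thra (0.21), the last losing its call in 2 of 20 alternatives. Of 7 genes of water channels and their anchors tested, 2 were called higher, Kcnj10 among them, and 0 lower (median log2 0.11).

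Lipoprotein genes, tested beside Apoe and Clu, had 2 of 9 called higher and 1 lower (median log2 0.12). The shares of all genes tested, 8.35% called higher and 3.46% lower, stand beside each count in this paragraph. The lipid exporter gene Abca1 averaged 10.8 CPM in the Ezh2fl/null libraries and 4.33 CPM in the Ezh2fl/+ libraries (log2 1.30; edgeR adjusted p = 2.69e-05). Sorl1 (log2 0.35) was also called higher, and its call ended in 10 of 20 alternatives. Of 12 intermediate filament genes tested, 4 were higher and 2 lower (median log2 0.04), with Prph at 1.29 and Nefh at 1.02, both of neurons, Krt18 at 0.86, Lmna at 0.42, Synm at -0.65 and Nefm at -0.30. The calls of Krt18, Lmna and Nefm ended in 2, 9 and 1 alternatives, and Nes, the nestin gene of progenitors and glia, was at 0.07 and did not pass. Of 8 visual cycle genes tested beside Rlbp1, Rbp3 (log2 0.17) was called higher and 0 lower, and its call ended in 9 alternatives. Of 18 antioxidant enzyme genes tested beside Prdx6, edgeR and DESeq2 each called 0 in either direction, and 3 had an unadjusted edgeR p under 0.05, namely Prdx4, Sod2 and Txn1.

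**Figure D4:**
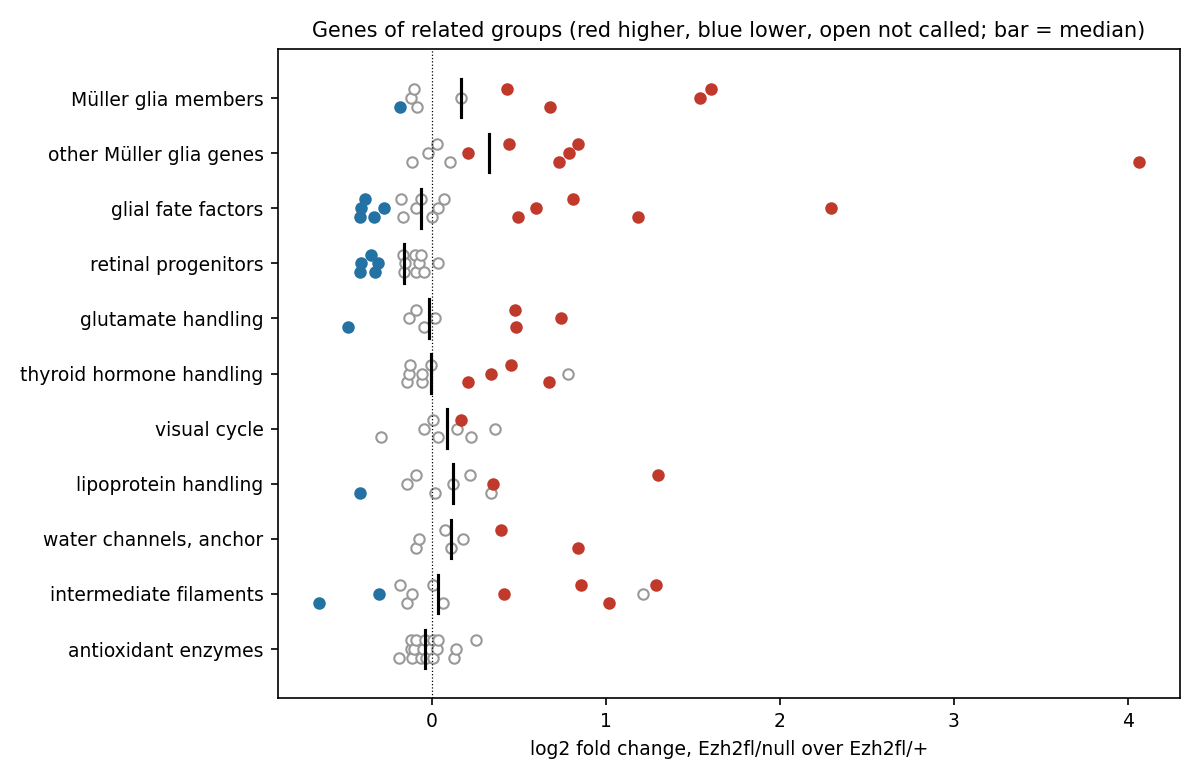
Log2 fold change (x axis) of single genes in the libraries labelled Ezh2fl/null over those labelled Ezh2fl/+, by group (y axis). Filled red points were called higher, filled blue points lower and open points not called by edgeR, and a bar marks the median of each group, at 0.17 for the 9 markers, 0.33 for the other Müller glia genes and -0.16 for retinal progenitors. Of the genes plotted, Mlc1 at 4.06 and Nfix at 2.29 lie farthest to the right.

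For each called member, the 3 other genes whose log2 CPM followed it most closely were taken by Pearson correlation over the 8 libraries. Since the libraries fall into 2 genotypes and share depth and scaling, these values describe likeness of pattern and carry no test. Crym was followed by Eda2r (r = 0.996), Crabp1 (0.995) and Bhlhe22 (0.994), which were at log2 3.26, 1.26 and 0.71. Aqp4 was followed by Wfdc1 (0.991), Ntng1 (0.990) and Myo3b (0.988), and Clu by Rarg (0.988), Syt6 (0.985) and Cntnap2 (0.983). Glul was followed by Ccnd1 (0.978), Oraov1 (0.978) and Cdca7l (0.976), which were at log2 -0.35, -0.36 and -0.36. Rlbp1 was followed less closely by Cyp2j6 (0.970), Ppic (0.969) and Actr10 (0.969), of which Actr10 was not called (edgeR adjusted p = 0.0757).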

How the data were processed

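RNA of 8 peripheral retina samples was sequenced, 4 per genotype, and nothing in the labels says whether they came from separate embryos or litters. The Ezh2fl/null libraries were of both sexes, so they did not all come from the same embryo. The p-values rest on the spread among these samples, part of which may be technical. Novoalign 2.08.01, DESeq2 and the build mm10 are named, without roles, per the submitters' processing notes. The sources used here do not give the counter, its annotation and strand setting, or any filter on rows. The deposited table holds whole-number counts per gene and library, FPKM made by the authors, the authors' log2 ratio, and a score the authors head as an adjusted p-value, whose values go above 1 and which was not used for any call.

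Counts were tested in R 4.3.3 with edgeR 4.0.16 (TMM scaling, filterByExpr with a minimum count of 10, glmQLFit and glmQLFTest), with Benjamini-Hochberg adjustment over 15014 genes and a threshold of 0.05. The 1082 genes left out were outside the 99.9% of counts held by the tested genes. DESeq2 1.42.0 and limma 3.58.1 on log2(FPKM + 0.1) and log2(FPKM + 1) were among 20 alternatives. All 9 members passed the filter. FPKM was used for levels between genes. CPM of single genes is computed from the counts and TMM library sizes. The CPM of summed genes, lens genes included, is computed from the plain library totals, without TMM. Counting error and the number of libraries limit precision.

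The members and gene lists were chosen with earlier results of these data known. Named genes were the members, Ezh2, at most 4 called genes of each list by p-value, and for each called member the 3 genes most correlated with it at a mean of at least 1 CPM; further list genes named were chosen after their values were seen, and some called genes are not reported here. Coordinates are from GENCODE M21 (mm10) and sequences from RefSeq (GRCm38.p6).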

Additional observations from a re-analysis of the deposited data

Results flagged for a closer look

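On the FPKM scale, Glul had 1 Ezh2fl/null library far below the others. Replicate 2 had 163 FPKM, against 183, 183 and 182 FPKM in replicates 1, 3 and 4 of the same group, and the gap to the nearest of these was 0.929 of the whole range of the group, above the 95% critical value of Dixon's test for 4 samples. In the scaled CPM used for the test, Glul had 559 CPM in replicate 2, against 603, 598 and 587 CPM in replicates 1, 3 and 4, and the gap was below that critical value. Without Ezh2fl/null replicate 2 the Glul log2 fold change was -0.16 (edgeR adjusted p = 0.0601, where the 20 alternatives gave 0.000163 to 0.164). Chance gives such a gap in about 1 in 20 groups, and 1 was found among the groups of the 9 members and Ezh2.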

How the results depend on the processing

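Over 20 alternatives no member changed direction. Crym (log2 1.497 to 1.69), Aqp4 (0.44 to 1.71, lowest in limma on log2(FPKM + 1), where the pseudocount lowers the fold of a gene at this level) and Clu (0.55 to 0.73) were called in all 20. The members called higher, 4 in the reported fit, numbered 3 in 7 of the 8 fits that left out 1 library. They numbered 4 in 0 of these fits, and 5 without Ezh2fl/null replicate 4. In the 12 other alternatives they numbered 3 in 5 and 4 in 7. The members called lower, 1 in the reported fit, were 0 with library size alone, in both limma fits, with the replicate block, with sex as a covariate, in male libraries only and without the libraries with lens genes above 5 CPM, and 0 to 1 when 1 library was left out. The genes called higher, 1253, were 795 with sex as a covariate, 792 in male libraries only and 988 to 1230 when 1 library was left out. The genes called lower, 520, were 273 with library size alone, 220 and 229 in the limma fits with pseudocounts of 0.1 and 1, 246 with sex as a covariate, 259 in male libraries only, 323 without the lens libraries and 319 (without Ezh2fl/+ replicate 3) to 669 when 1 library was left out. The share of calls that were higher, 70.7%, was 82.5% with library size alone and 83.8% and 83.4% in the limma fits. Ezh2 passed the threshold with DESeq2 (log2 0.21), with the replicate block (log2 0.21) and without Ezh2fl/null replicate 4 (0.26, in a range of 0.16 to 0.26 when 1 library was left out). Whether replicate numbers pair the samples was left unsettled. Same-numbered libraries deviated from their group means with correlations of 0.281, -0.107, 0.026 and 0.201 for replicates 1 to 4. For replicates 1 and 4 the same-numbered library was the closest of the other group in both directions, and for replicates 2 and 3 it was not. The reported fit used no pairing. The causes were not tested. Low counts limit the precision of Aqp4 and Mlc1.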

Other observations

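Markers of further cell types were counted for the same libraries, where 8.35% of all genes tested were called higher and 3.46% lower. Photoreceptor genes had 5 of 6 called higher and 0 lower (median log2 0.58), with sums of 641 to 697 CPM in the Ezh2fl/null libraries and 522 to 562 CPM in the Ezh2fl/+ libraries. Ganglion cell genes had 2 of 11 called higher and 4 lower (median log2 -0.15). Thy1 (log2 1.45) and Pou4f3 (1.24) were higher, and Pou4f2 (-0.96) and Atoh7 (-0.80) were among the lower ones. The calls of these genes held in each of 20 alternatives. Of the other lower ones, the call of Isl1 ended in 13 and that of Nefm in 1 of 20 alternatives. Genes of endothelium and pericytes had 1 of 4 called in each direction, with sums of 274 to 327 CPM in the Ezh2fl/null libraries and 343 to 376 CPM in the Ezh2fl/+ libraries. Most of that sum was Kdr. With TMM scaling, which the sums do not have, Kdr averaged 281 CPM in the Ezh2fl/null libraries and 332 CPM in the Ezh2fl/+ libraries. On the same scale Cldn5, called higher, averaged 10.2 CPM in the Ezh2fl/null libraries and 7.52 CPM in the Ezh2fl/+ libraries. The calls of Kdr and Cldn5 ended in 4 and 7 of 20 alternatives. Pecam1 averaged 0.597 CPM in the Ezh2fl/null libraries and 0.524 CPM in the Ezh2fl/+ libraries and did not pass the test. Pdgfrb (log2 -0.20) did not pass either, and Cdh5 and Rgs5 were left out by the filter. The sum therefore mostly follows Kdr and is no measure of these cells. Immediate early genes had 1 of 6 called higher and 0 lower.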
